A study of Sus scrofa with 16 samples.

Results

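The genes described here encode antimicrobial and oxidant effectors of the intestinal mucosa: S100A9, DUOX2, ARG2, BPI, DEFB1, REG4, RNASE4 and LEAP2. They were chosen by gene symbol, as every probe set of the array annotated with one of these 8 genes alone. That gave 13 of the 23999 probe sets other than controls, and 10 of these were bright enough to be tested, at least 1 for each gene. The tissue came from preterm piglets of a Landrace x Large white x Duroc cross, delivered by caesarean section on gestation day 105 and killed on day 5. All had been fed into a vein with small enteral amounts at first, and fully by stomach tube from day 3. The antibiotics group was given metronidazole, ampicillin and gentamicin, orally and by intramuscular injection, from birth until tissue collection, and the untreated group received saline in the same way. Small intestinal tissue was measured in 4 groups of 4 arrays: antibiotics distal, untreated distal, antibiotics proximal and untreated proximal. Read from the number in the sample names, the arrays came from 9 of the trial's 24 piglets, and 7 of the 9 (3 with antibiotics, 4 untreated) gave both segments. The sources used here do not give the litter or lesion score of each piglet.

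The gut epithelium and the leukocytes beneath it defend the mucosa with proteins that act on microbes in different ways. Some, such as defensins and BPI, bind and damage bacterial membranes, some withhold metals or, like the ribonucleases, digest RNA, and oxidases such as DUOX2 make hydrogen peroxide at the apical surface. Arginases compete with nitric oxide synthases for arginine, which links amino acid use to the making of another reactive defence molecule. Several of these genes are known from other studies to respond to the presence of bacteria.

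Each value is a log2 expression value of 1 probe set on 1 array, made by the authors with GCRMA, and its floor was 2.14. Values of different probe sets are not on a common scale, so levels are compared between arrays and not between genes. Tested were the 11538 probe sets that exceeded 5 on at least 4 arrays, and each array had 45.1% to 46.5% of all probe sets above that level. All 8 genes passed this filter, but DUOX2 and ARG2 through untreated arrays alone and S100A9 through 8 untreated arrays and 1 antibiotics array, so counts and medians over the 8 genes are descriptions only. A difference is the mean of the first-named group minus that of the second, and passed where its limma p, adjusted over all tested probe sets, was below 0.05. As a check of the tissue labels, all 8 annotated enterocyte genes passed the filter, and GUCA2A (guanylin) lay at 9.51 to 10.73 on the distal and at 5.62 to 8.45 on the proximal arrays. FABP6, the ileal bile acid-binding protein, overlapped between segments, at 6.64 to 11.03 on the distal and 2.28 to 7.40 on the proximal arrays, where untreated piglet 88 was highest.

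S100A9 and ARG2 had lower log2 values on every antibiotics array than on any untreated array in both segments, and these were the members that passed in either segment. Of these 4 calls the distal one of S100A9 alone also passed when dim probe sets were tested too. In distal tissue 2 of the 8 genes passed, both lower, beside 2.12% of all tested probe sets (1.1% lower). In 5 of the 8 (S100A9, DUOX2, ARG2, REG4 and RNASE4) every antibiotics array lay below every untreated array, which was so for 6.31% of all probe sets, and 7 of the 8 means were lower, beside 49.6%. In proximal tissue the same 2 genes passed, beside 0.147% of all probe sets (0.0867% lower). There 3 genes (S100A9, DUOX2 and ARG2) lay lower without overlap, beside 1.74% of probe sets, 7 of the 8 means were lower, beside 56.8%, and LEAP2 lay higher without overlap, beside 1.31%. An unadjusted p below 0.05 was reached by 6 genes in distal tissue, beside 15.8% of probe sets, and by 7 in proximal tissue, beside 12.9%. The median difference of the 8 genes was -2.71 in distal and -2.04 in proximal tissue (log2), and that of all tested probe sets was 0.00 and -0.07. S100A9, DUOX2 and ARG2 were lower without overlap in both segments, as were 0.607% of all probe sets. The 2 comparisons use separate arrays but mostly the same piglets.

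**Figure D1:**
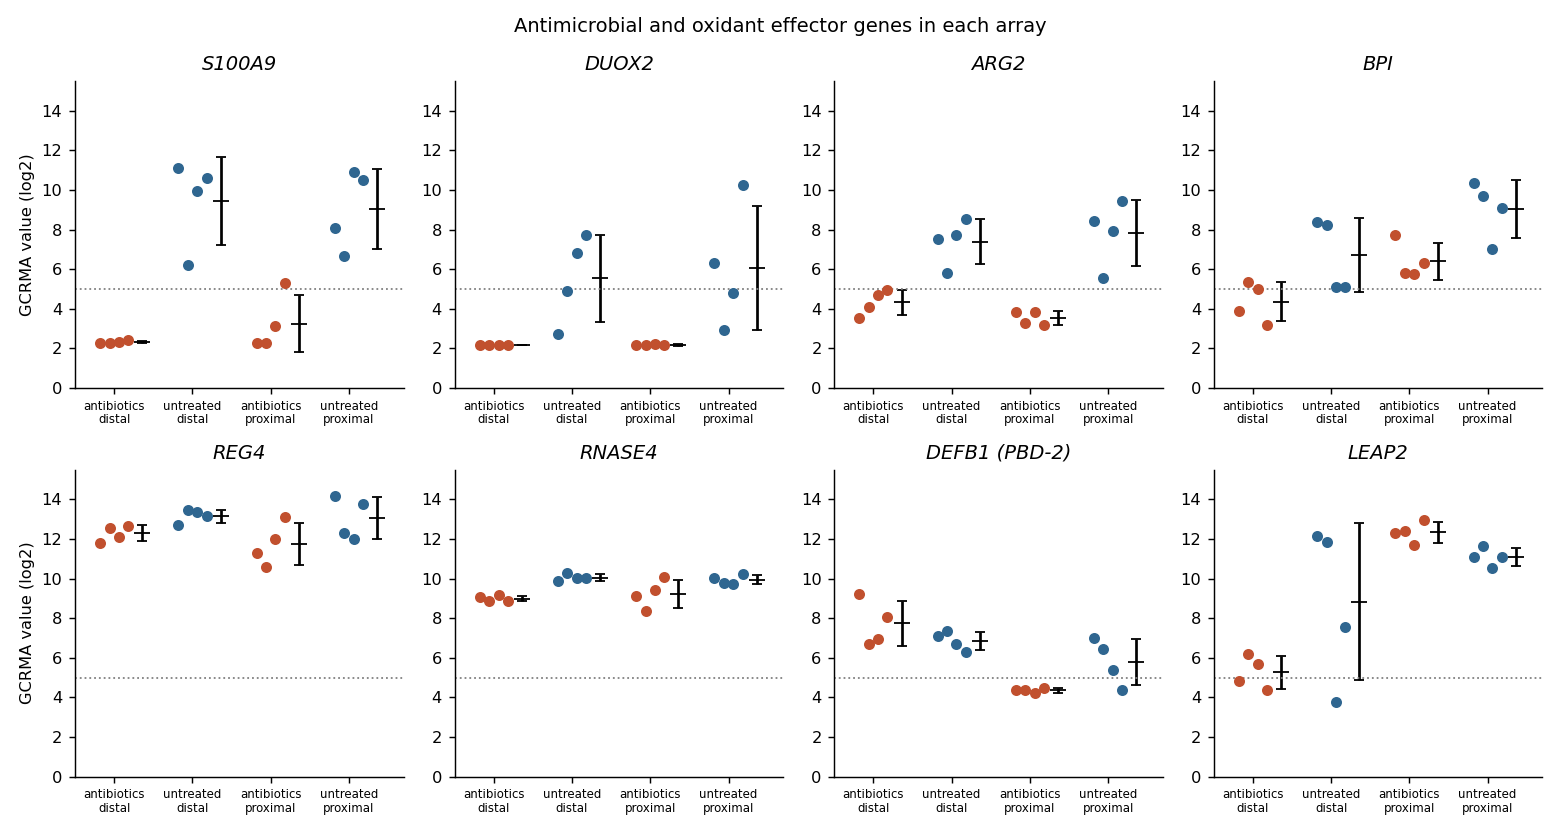
Log2 GCRMA value of each gene (vertical axis) on each of the 16 arrays, with the groups antibiotics distal, untreated distal, antibiotics proximal and untreated proximal from left to right; points are arrays in order of piglet number, the bar beside them is the mean with its SD (n = 4), and the dotted line is the filter level of 5. S100A9, DUOX2 and ARG2 lie at or below 5.30 on every antibiotics array. In antibiotic-treated piglets LEAP2 is lower and DEFB1 higher in distal tissue without overlap. Whether the segments differ more in treated than in untreated piglets did not pass in limma for either gene.

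S100A9 forms calprotectin with S100A8, a zinc- and manganese-binding complex that makes up much of the cytosol of neutrophils and that stressed epithelium can also make. In distal tissue its log2 values were 2.29, 2.28, 2.30 and 2.39 in antibiotics piglets 85, 86, 87 and 95, against 11.08, 6.20, 9.97 and 10.60 in untreated piglets 83, 88, 89 and 92. The treated arrays all lay near the floor, while the untreated arrays spread over 4.88 log2 units with piglet 88 lowest. S100A9 fell by 7.15 (SE 1.04, limma adjusted p = 0.00161), and since all treated arrays were below the filter level the change is given as at least 22.1-fold. This call held with dim probe sets kept and in each of the 16 fits that left out 1 array. In tissue samples of this kind, fewer cells of a type and less RNA per cell cannot be told apart.

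In proximal tissue S100A9 had log2 values of 2.29, 2.28, 3.12 and 5.30 in antibiotics piglets 86, 87, 95 and 98, against 8.06, 6.68, 10.91 and 10.51 in untreated piglets 83, 88, 89 and 92. The groups did not overlap, and piglet 98, the only treated array above 5, had no distal array. S100A9 fell by 5.79 (SE 1.04, adjusted p = 0.0435). The call was lost with dim probe sets kept (adjusted p = 0.188), in a fit of the 8 proximal arrays alone (0.155) and with RNA integrity (0.0649) or gut position (0.0602) as a covariate. It was lost in 12 of the 16 fits that left out 1 array, with an adjusted p of 0.132, 0.110 and 0.135 without antibiotics proximal arrays 86, 87 and 95, and of 0.0888, 0.0517 and 0.167 without untreated proximal arrays 83, 89 and 92. It was also lost without distal arrays 85, 86, 87 and 95 of the antibiotics group (0.0672, 0.0662, 0.0744 and 0.0648) and distal arrays 89 and 92 of the untreated group (0.0543 and 0.0524), which enter only through the shared spread and the adjustment.

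Of the 18 S100 genes listed, 10 were annotated and 7 tested, and S100A9 alone passed in either segment in limma. Of the other 6, 1 had an unadjusted p below 0.05 in distal and 0 in proximal tissue, beside 15.8% and 12.9% of all probe sets. The median difference of the other 6 was 0.09 in distal and -0.15 in proximal tissue, and their most extreme value was 1.01 for S100A14 in distal tissue (adjusted p = 0.263). S100A8, the partner of S100A9 in calprotectin, and S100A12, another S100 protein of granulocytes, lie next to S100A9 in the RefSeq annotation of the Sscrofa11.1 assembly, but their probe sets were too dim to be tested. S100A8 was at the floor of 2.14 on all antibiotics arrays, and its untreated arrays lay at 2.14 to 6.34 in distal and 2.14 to 4.91 in proximal tissue. S100A12 was likewise at the floor on all antibiotics arrays and reached 5.92 in untreated distal and 4.67 in untreated proximal tissue. Floor and untreated ranges met for both genes, so at least 1 untreated array in each segment was also at the floor.

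Markers of the leukocytes known to make S100A9 are given beside these values. Of 16 neutrophil markers 7 were annotated and 1, NCF1, was tested. ELANE (neutrophil elastase), MMP9, LTF and ITGAM lay at 2.14 to 2.25 on all 16 arrays. Values this near the floor do not show whether neutrophils were present. The summed level of the 7 genes, as a log2 value, ranged over 5.34 to 5.57 in antibiotics distal and 5.99 to 7.69 in untreated distal tissue, and over 5.32 to 5.80 in antibiotics proximal and 5.46 to 6.65 in untreated proximal tissue. Of 12 macrophage markers 9 were annotated and 5 tested, with summed levels of 9.48 to 10.48 in antibiotics distal and 11.24 to 11.69 in untreated distal tissue, and of 10.16 to 11.69 in antibiotics proximal and 10.91 to 12.06 in untreated proximal tissue. CD163, a scavenger receptor of macrophages, was the gene whose values followed those of S100A9 most closely (r = 0.95 over the 16 arrays, 0.77 after subtraction of group means). CD163 averaged 4.03 with antibiotics and 9.03 in untreated distal tissue (difference -5.00, adjusted p = 0.00560), and 4.81 and 8.58 in proximal tissue (-3.78, adjusted p = 0.0959). C1QC, a chain of complement C1q made by macrophages, fell by 2.05 in distal tissue (SE 0.49, adjusted p = 0.0399) and differed by 0.17 in proximal tissue (adjusted p = 0.921), where C1QA, another chain, differed by 0.04 (adjusted p = 0.986). CD14 stayed at or near the floor (at most 2.34), as did MARCO and SIGLEC1 (2.14). MRC1 lay at 6.26 to 6.72 in antibiotics distal and at 7.52 to 8.56 in untreated distal tissue. AIF1 overlapped there, at 8.70 to 10.12 and 9.64 to 10.86. All 5 tested macrophage markers averaged lower in distal tissue, beside 49.6% of all probe sets. There 2 passed, beside 2.12%, and 5 had an unadjusted limma p below 0.05, beside 15.8%. In proximal tissue 3 of the 5 averaged lower, beside 56.8%, 0 passed, and 2 had an unadjusted p below 0.05, beside 12.9%. The part of either cell type in the S100A9 values was not tested.

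DUOX2 is an NADPH oxidase of the epithelial surface that releases hydrogen peroxide and needs the partner protein DUOXA2. It was listed at the floor of 2.14 on all 4 antibiotics distal arrays, against 2.73, 4.90, 6.79 and 7.70 in untreated distal tissue of piglets 83, 88, 89 and 92. In proximal tissue it was at 2.14, 2.16, 2.21 and 2.14 in antibiotics piglets 86, 87, 95 and 98, against 6.30, 2.90, 4.77 and 10.25 in untreated piglets 83, 88, 89 and 92. No treated array reached any untreated array, but the untreated arrays spread over 4.98 log2 units in distal and 7.35 in proximal tissue. Exactly 4 arrays, all untreated, lay above 5, so the filter itself selected the gene for higher values in untreated tissue. Its difference was -3.39 in distal tissue (SE 1.19, 95% interval -5.92 to -0.85, adjusted p = 0.168) and -3.89 in proximal tissue (SE 1.19, 95% interval -6.43 to -1.36, adjusted p = 0.193), and neither passed. The proximal difference passed without untreated proximal array 88 (-4.94, adjusted p = 0.0219), and the distal one without untreated proximal array 92 (adjusted p = 0.0491).

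Among the genes of oxidant production and handling, 29 of 41 were annotated and 24 tested. Apart from DUOX2, 1 of 23 passed in distal tissue, beside 2.12% of all probe sets. NCF1, a cytosolic subunit of the phagocyte NADPH oxidase, fell by 1.43 (SE 0.33, adjusted p = 0.0330). It averaged 4.07 with antibiotics and 5.50 in untreated distal tissue. NCF1 lay at no more than 4.36 on antibiotics distal and 4.87 on antibiotics proximal arrays. It thus met the filter through untreated arrays alone, so the filter itself selected it for higher values in untreated tissue. None of the 23 passed in proximal tissue in limma (10 had an unadjusted p below 0.05, beside 12.9% of all probe sets). Their median difference was -0.14 in distal and -0.01 in proximal tissue. GPX2, the gastrointestinal glutathione peroxidase that removes hydroperoxides, had the most negative difference of the list but did not pass. Its log2 value was 6.74 ± 0.37 with antibiotics and 11.00 ± 1.99 in untreated distal tissue (SD, n = 4 each; difference -4.26, adjusted p = 0.0755), and 6.16 ± 0.66 and 10.35 ± 3.08 in proximal tissue (difference -4.18, adjusted p = 0.167). GPX3, the secreted peroxidase, had the most positive differences, 2.05 in distal and 2.57 in proximal tissue (adjusted p = 0.228 and 0.206). DUOX1, the close relative of DUOX2 that neighbours it in the Sscrofa11.1 annotation, and NOS2, the inducible nitric oxide synthase, were near the floor in every group, with group means of 2.14 to 2.23.

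ARG2, the mitochondrial arginase that turns arginine into ornithine and urea, was lower with antibiotics in both segments. In distal tissue its log2 values were 3.54, 4.11, 4.70 and 4.97 in antibiotics piglets 85, 86, 87 and 95, against 7.53, 5.78, 7.72 and 8.54 in untreated piglets 83, 88, 89 and 92. In proximal tissue they were 3.84, 3.28, 3.84 and 3.18 in antibiotics piglets 86, 87, 95 and 98, against 8.44, 5.53, 7.92 and 9.43 in untreated piglets 83, 88, 89 and 92. All 8 antibiotics arrays lay below the filter level of 5 and all 8 untreated arrays above it, with untreated piglet 88 lowest and untreated piglet 92 highest in both segments. ARG2 fell by 3.06 in distal tissue (SE 0.68, adjusted p = 0.0284), at least 5.25-fold, and fell by 4.30 in proximal tissue (SE 0.68, adjusted p = 0.0190), at least 7.11-fold. As the filter was met through untreated arrays alone, the values with dim probe sets kept stand beside these, an adjusted p of 0.107 in distal and 0.135 in proximal tissue, where neither passed. The distal call was also lost with only piglets that gave both segments (adjusted p = 0.102) and the proximal call in a fit of the 8 proximal arrays alone (0.125). The distal call was lost without antibiotics distal arrays 85, 86, 87 and 95 (adjusted p = 0.0930, 0.0820, 0.0574 and 0.0501) and untreated distal arrays 83, 89 and 92 (0.0771, 0.0685 and 0.110), and the proximal call without antibiotics proximal arrays 86, 87 and 95 (0.0558, 0.0566 and 0.0740) and untreated proximal arrays 83 and 92 (0.0851 and 0.0780). A pair of further ARG2 probe sets were too dim to be tested, and the brighter of them lay at 3.65 on most arrays, at 4.31 and 5.13 in the distal and proximal tissue of untreated piglet 92 and at 4.15 in the proximal tissue of untreated piglet 83.

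Other genes of arginine metabolism did not share this pattern as a group. Of 27 listed, 20 were annotated and 16 tested, and the median difference of the 15 others was 0.18 in distal and 0.55 in proximal tissue. In distal tissue 1 of the 15 passed, beside 2.12% of all probe sets. DDAH1, which breaks down an endogenous inhibitor of nitric oxide synthases, fell by 1.55 (SE 0.33, adjusted p = 0.0238). Its proximal difference was -1.67 (adjusted p = 0.0575). None of the 15 passed in proximal tissue in limma (7 had an unadjusted p below 0.05, beside 12.9% of all probe sets). ARG1, the cytosolic arginase, averaged 2.14 with antibiotics and 4.64 in untreated distal tissue (difference -2.50, adjusted p = 0.408), and 2.25 and 4.68 in proximal tissue (difference -2.42, adjusted p = 0.492). GAMT, a creatine-making enzyme, and OTC, the urea-cycle enzyme that uses ornithine, had the largest positive differences, 1.93 in distal tissue for GAMT (adjusted p = 0.238) and 2.27 in proximal tissue for OTC (adjusted p = 0.167).

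**Figure D2:**
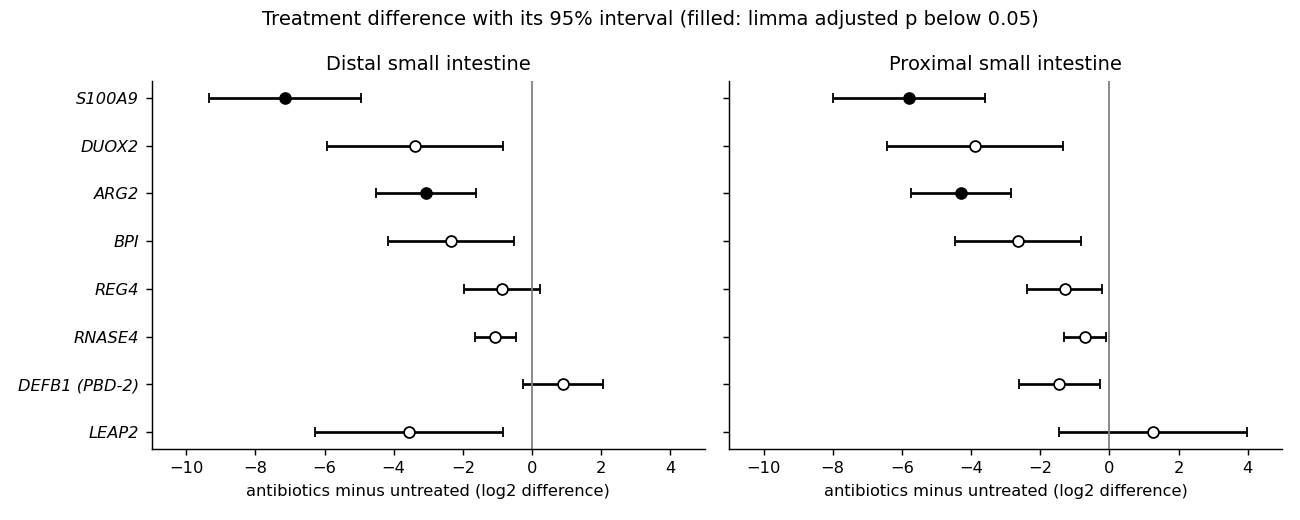
Difference of group means, antibiotics minus untreated, in log2 units (horizontal axis) with its 95% interval for each gene in distal (left) and proximal (right) small intestine; filled points passed an adjusted p of 0.05 in limma. S100A9 and ARG2 passed in both segments, and DEFB1 in distal and LEAP2 in proximal tissue are the points to the right of 0.

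BPI, the bactericidal/permeability-increasing protein, binds the lipid A part of endotoxin and kills Gram-negative bacteria. In distal tissue it was at 3.87, 5.35, 4.98 and 3.19 in antibiotics piglets 85, 86, 87 and 95, against 8.39, 8.24, 5.09 and 5.08 in untreated piglets 83, 88, 89 and 92. In proximal tissue it was at 7.73, 5.79, 5.77 and 6.28 in antibiotics piglets 86, 87, 95 and 98, against 10.36, 9.68, 7.01 and 9.07 in untreated piglets 83, 88, 89 and 92. The groups overlapped in both segments, in distal tissue because untreated piglets 89 and 92 lay close to the treated ones. The differences were -2.35 in distal tissue (SE 0.86, adjusted p = 0.182) and -2.64 in proximal tissue (SE 0.86, adjusted p = 0.213), and neither passed. A further BPI probe set gave -2.51 and -2.70 (adjusted p = 0.253 and 0.318) and also had piglets 89 and 92 (4.48 and 4.25) below piglets 83 and 88 (7.41 and 7.64) in untreated distal tissue.

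Of 10 genes of endotoxin binding and sensing 7 were annotated and 4 tested. TLR4, the endotoxin receptor, fell by 2.25 in distal tissue (SE 0.45, adjusted p = 0.0174), averaging 3.15 with antibiotics and 5.39 in untreated tissue, and its proximal difference of -1.03 did not pass (adjusted p = 0.355). LY96, the co-receptor also called MD-2, averaged 8.45 with antibiotics and 9.54 in untreated distal tissue (difference -1.08, adjusted p = 0.321) and differed by -1.38 in proximal tissue (adjusted p = 0.287). LBP, the plasma protein that hands endotoxin to its receptors and that neighbours BPI in the Sscrofa11.1 annotation, was too dim to be tested. Its group means were 2.16 with antibiotics and 4.18 in untreated distal tissue, and 2.17 and 4.94 in proximal tissue.

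REG4, a secreted C-type lectin made by goblet and enteroendocrine cells, was bright on every array. In distal tissue it lay at 11.81, 12.57, 12.10 and 12.65 in antibiotics piglets 85, 86, 87 and 95, against 12.69, 13.44, 13.34 and 13.14 in untreated piglets 83, 88, 89 and 92, so the groups were apart by only 0.04 at their nearest. In proximal tissue it lay at 11.32, 10.60, 12.01 and 13.10 in antibiotics piglets 86, 87, 95 and 98, against 14.16, 12.33, 11.98 and 13.76 in untreated piglets 83, 88, 89 and 92, and the groups overlapped. The difference was -0.87 in distal (SE 0.51, 95% interval -1.96 to 0.22, adjusted p = 0.453) and -1.30 in proximal tissue (SE 0.51, 95% interval -2.39 to -0.21, adjusted p = 0.319). The SE pools the spread of the 4 groups. The SD was 0.40 and 0.33 in antibiotics and untreated distal tissue, and 1.07 in each proximal group. The goblet markers TFF3, CLCA1 and FCGBP, summed, lay at 13.45 to 13.70 in antibiotics distal and 13.92 to 14.31 in untreated distal tissue, and at 12.86 to 13.39 in antibiotics proximal and 13.23 to 14.14 in untreated proximal tissue. The summed goblet levels thus also lay lower without overlap in treated distal tissue, but each of the 3 genes overlapped on its own there. None of the 3 passed in limma in distal tissue (2 had an unadjusted p below 0.05, beside 15.8% of all probe sets). The part of goblet cells in the REG4 values was not tested. REG4 was the only annotated gene of the 5 Reg lectins listed.

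RNASE4 is a secreted ribonuclease of the RNase A family. Its log2 values lay close together within each distal group: they were 9.05, 8.87, 9.15 and 8.87 in antibiotics piglets 85, 86, 87 and 95, against 9.86, 10.28, 10.04 and 10.01 in untreated piglets 83, 88, 89 and 92. In proximal tissue they were 9.10, 8.35, 9.42 and 10.07 in antibiotics piglets 86, 87, 95 and 98, against 10.05, 9.80, 9.72 and 10.22 in untreated piglets 83, 88, 89 and 92. Antibiotics piglet 98 alone overlapped the untreated arrays in proximal tissue, and it was also the highest treated proximal array for S100A9 and REG4. The treated proximal arrays spread over 1.72 log2 units. The difference was -1.06 in distal tissue (SE 0.28, 95% interval -1.66 to -0.46, adjusted p = 0.0673) and -0.71 in proximal tissue (SE 0.28, adjusted p = 0.320). The distal difference passed in a fit of the 8 distal arrays alone (adjusted p = 0.0143), and without antibiotics proximal array 87 (adjusted p = 0.0207) or 98 (adjusted p = 0.0235). ANG (angiogenin), which neighbours RNASE4 in the Sscrofa11.1 annotation, differed by 0.14 in distal and -0.43 in proximal tissue (adjusted p = 0.925 and 0.752). RNH1, the cytosolic inhibitor of these enzymes, differed by 0.52 and -0.17 (adjusted p = 0.435 and 0.864). None of RNASE4, ANG and RNH1 passed in limma (RNASE4 alone had an unadjusted p below 0.05, in both segments).

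DEFB1 and LEAP2 encode small cationic peptides that damage bacteria, and they were the members with a treatment difference above 0 in one segment. The symbol DEFB1 covers a pair of genes in the annotation used here. The probe set of the gene with the synonym PBD-1 lay at 2.14 to 2.18 on all arrays and was not tested, so the values below are those of porcine beta-defensin PBD-2. In distal tissue it was at 9.22, 6.71, 6.96 and 8.07 in antibiotics piglets 85, 86, 87 and 95, against 7.08, 7.36, 6.68 and 6.28 in untreated piglets 83, 88, 89 and 92. In proximal tissue it was at 4.37, 4.37, 4.20 and 4.45 in antibiotics piglets 86, 87, 95 and 98, against 6.99, 6.42, 5.40 and 4.37 in untreated piglets 83, 88, 89 and 92. The groups overlapped in both segments, and untreated piglet 92 lay at the level of the treated ones in proximal tissue. The difference was 0.89 in distal tissue (SE 0.55, adjusted p = 0.471) and -1.45 in proximal tissue (SE 0.55, adjusted p = 0.292).

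LEAP2, liver-expressed antimicrobial peptide 2, is also known in mouse and human as a gut hormone that blocks the ghrelin receptor. In distal tissue it was at 4.84, 6.18, 5.69 and 4.36 in antibiotics piglets 85, 86, 87 and 95, against 12.13, 11.83, 3.76 and 7.57 in untreated piglets 83, 88, 89 and 92. Untreated piglets 83 and 88 were as high there as in proximal tissue, whereas piglet 89 lay below every treated array. In proximal tissue it was at 12.29, 12.40, 11.69 and 12.95 in antibiotics piglets 86, 87, 95 and 98, against 11.07, 11.63, 10.52 and 11.09 in untreated piglets 83, 88, 89 and 92. The difference was -3.56 in distal tissue (SE 1.28, 95% interval -6.28 to -0.84, adjusted p = 0.176). In proximal tissue it was 1.25 (SE 1.28, 95% interval -1.47 to 3.97, adjusted p = 0.744), where the groups were apart by 0.06 at their nearest. Both SEs come from a spread pooled over the 4 groups. The SD was 3.97 in untreated distal and 0.82 in antibiotics distal tissue, but 0.45 and 0.52 in untreated and antibiotics proximal tissue. The proximal interval is thus wider than the proximal arrays alone would make it. Without untreated distal array 89 the distal difference passed (-5.24, adjusted p = 0.00514). A further LEAP2 probe set gave -3.78 and 1.14 (adjusted p = 0.122 and 0.751).

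The piglets high in distal LEAP2 were also high in distal BPI. Untreated piglets 83 and 88 had the 2 highest distal values of both genes, and piglets 89 and 92 the 2 lowest of the untreated group. After subtraction of group means the values of BPI and LEAP2 correlated at r = 0.73 over the 16 arrays, which share piglets between segments. FABP6 split the same arrays, at 11.03 and 10.17 in untreated piglets 83 and 88 and at 7.32 and 6.64 in piglets 89 and 92. GUCA2A did not, at 9.51, 10.26, 10.21 and 10.43 in piglets 83, 88, 89 and 92. In both treatments LEAP2 and BPI averaged lower in distal than in proximal tissue, and FABP6 was higher there. The cause of the split was not tested. An axis was made of 123 probe sets that separate the segments and had a limma treatment p above 0.2 in each segment. On it (0 at the proximal and 1 at the distal end) the untreated distal arrays lay at 0.98, 0.83, 1.12 and 1.02 in piglets 83, 88, 89 and 92. The antibiotics distal arrays lay at 0.90 to 1.12. The sources used here do not say where along the gut each sample was cut. With this position as a covariate the treatment difference in distal tissue was -3.19 for LEAP2 (SE 0.97, adjusted p = 0.104) and -2.17 for BPI (SE 0.77, adjusted p = 0.159). The axis left out probe sets with a lower treatment p, so these fits cannot show whether position differed between the treatments.

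Whether the effect of antibiotics differed between the segments was asked with the difference of the 2 effects, distal minus proximal. None of the 8 genes passed in limma, beside 0.191% of all probe sets, and 2 of them had an unadjusted p below 0.05, beside 6.62%. The 2 were DEFB1, with a difference of effects of 2.34 (SE 0.77, adjusted p = 0.454), and LEAP2, with -4.81 (SE 1.81, adjusted p = 0.584). LEAP2 passed without untreated distal array 89 (-6.49, adjusted p = 0.0235). For S100A9 the difference of effects was -1.35 (95% interval -4.47 to 1.77), for ARG2 1.23 (-0.81 to 3.28), for DUOX2 0.51 (-3.08 to 4.09), for REG4 0.43 (-1.12 to 1.98), for RNASE4 -0.35 (-1.20 to 0.50) and for BPI 0.28 (-2.28 to 2.85). These intervals leave room for effects that differ by more than 1 log2 unit in either direction for S100A9, DUOX2, BPI and REG4.

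The segments themselves were set against each other within each treatment. In antibiotic-treated piglets 2 of the 8 genes passed, beside 5.25% of all probe sets (3.15% higher and 2.1% lower in distal tissue). LEAP2 fell by 7.06 in distal against proximal tissue (SE 1.28, adjusted p = 0.00395), and DEFB1 (PBD-2) rose by 3.39 (SE 0.55, adjusted p = 0.00188), at least 6.68-fold. Within the 3 treated piglets with both segments, 86, 87 and 95, distal minus proximal was -6.10, -6.71 and -7.33 for LEAP2 and 2.33, 2.59 and 3.87 for DEFB1. Every such piglet moved in the direction of the group, and both calls held in each of the 16 fits that left out 1 array. BPI also lay lower in distal tissue on every treated array, as did 4.7% of all probe sets, and did not pass (difference -2.05, adjusted p = 0.224). Of the other listed genes of oxidant and arginine handling, CAT (catalase) fell by 1.64 (adjusted p = 0.0478) and ASS1, which makes the arginine precursor argininosuccinate, rose by 3.18 (adjusted p = 0.00466) in distal against proximal tissue of treated piglets.

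In untreated piglets none of the 8 genes passed between segments in limma, beside 0.364% of all probe sets, and 1, BPI, had an unadjusted p below 0.05, beside 7.99%. BPI averaged 6.70 ± 1.87 in distal and 9.03 ± 1.45 in proximal tissue (SD, n = 4 each; difference -2.33, adjusted p = 0.404), and distal minus proximal was -1.97, -1.44, -1.92 and -3.98 in piglets 83, 88, 89 and 92. It was thus lower in the distal segment of all 4 untreated piglets, as of the 3 treated piglets with both segments (-2.38, -0.81 and -2.58 in 86, 87 and 95). LEAP2 differed by 1.06, 0.20, -6.76 and -3.52 in piglets 83, 88, 89 and 92, so the piglets were divided (difference -2.26, adjusted p = 0.757). DEFB1 differed by 0.10, 0.93, 1.27 and 1.91 in the same order (difference 1.05, adjusted p = 0.715). For S100A9, DUOX2, ARG2, REG4 and RNASE4 the difference between segments was at most 0.53 in size in untreated and 0.93 in antibiotic-treated piglets, and none passed. In treated piglets DUOX2 was at most 2.21 in both segments and S100A9 at most 2.39 in distal tissue. Values this near the floor cannot show whether the segments were alike. The 0.93 of S100A9 includes proximal piglet 98 (5.30), and distal minus proximal was -0.01, 0.02 and -0.73 in piglets 86, 87 and 95.

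**Figure D3:**
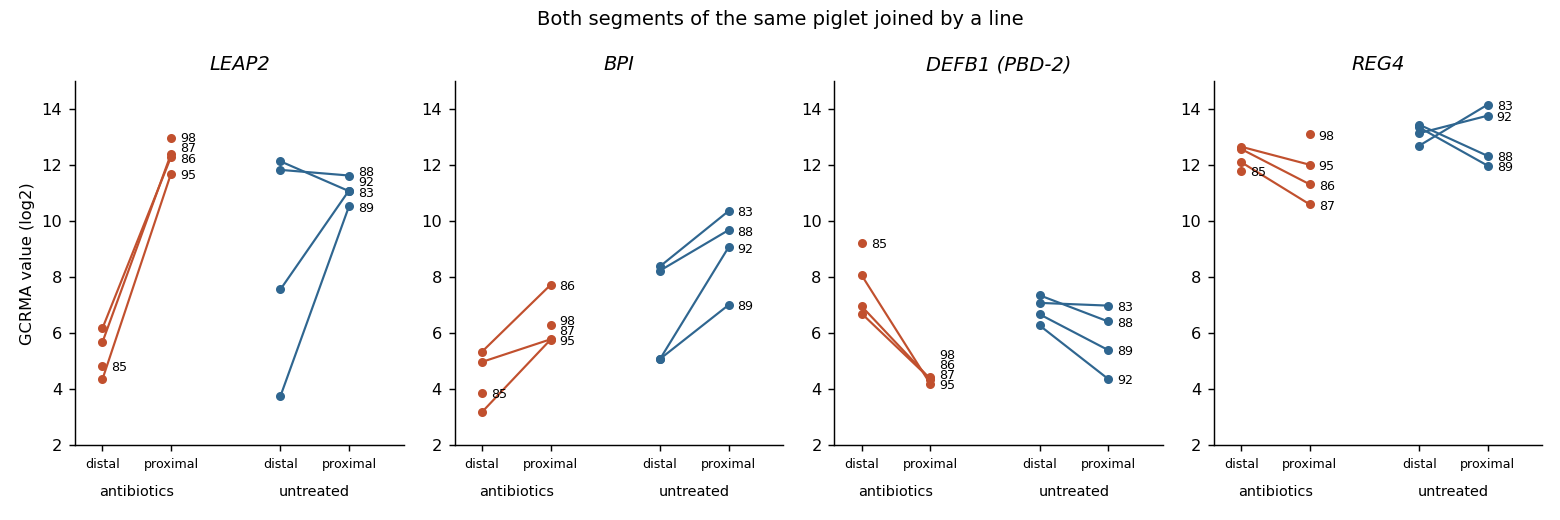
Log2 GCRMA value (vertical axis) of LEAP2, BPI, DEFB1 (PBD-2) and REG4 in the distal and proximal segment, with a line joining the segments of a piglet, antibiotics on the left and untreated on the right of each panel; numbers name the piglets, and 85 and 98 gave 1 segment each. LEAP2 is lower and DEFB1 higher in distal tissue of each treated piglet with both segments, while untreated piglets 83 and 88 have LEAP2 values near 12 in distal tissue.

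With each piglet counted once, as the mean of its segments, all 8 genes averaged lower in the 3 antibiotics than in the 4 untreated piglets, beside 53.2% of all probe sets. S100A9 passed, 1 of the 8, beside 0.347% of all probe sets, and 5 genes (S100A9, DUOX2, ARG2, REG4 and RNASE4) were lower without overlap, beside 8.28%. The S100A9 means were 2.29, 2.29 and 2.76 in antibiotics piglets 86, 87 and 95, against 9.57, 6.44, 10.44 and 10.56 in untreated piglets 83, 88, 89 and 92 (difference -6.81, SE 0.90, adjusted p = 0.0252). That call was lost without antibiotics piglets 86, 87 or 95 (adjusted p = 0.107, 0.141 and 0.105) and without untreated piglets 83, 89 or 92 (0.0826, 0.0537 and 0.0622). Without untreated piglet 88, ARG2 (-4.14, adjusted p = 0.00419) and RNASE4 (-1.02, adjusted p = 0.0413) passed as well. The values were -1.04 for RNASE4 (SE 0.18, adjusted p = 0.0578), -3.49 for ARG2 (SE 0.67, adjusted p = 0.0782), -1.23 for REG4 (SE 0.30, adjusted p = 0.125) and -3.64 for DUOX2 (SE 1.05, adjusted p = 0.171) with all 7 piglets.

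The order of the untreated piglets differed between genes, but some piglets recurred at its ends. Piglet 88 had the lowest untreated S100A9 and ARG2 values in both segments and the lowest proximal DUOX2 value, and piglet 92 had the highest ARG2 and DUOX2 values in both. With group means subtracted, r over the 16 arrays was 0.71 for DUOX2 and ARG2, 0.63 for S100A9 and ARG2 and 0.30 for S100A9 and DUOX2. REG4 and RNASE4 followed each other at r = 0.78, and S100A9 and BPI ran apart at r = -0.46. Near the floor, treated arrays hardly varied for DUOX2 (SD 0 in distal and 0.03 in proximal tissue) and for S100A9 in distal tissue (SD 0.05). The r values of these 2 genes therefore rest mostly on the untreated arrays of 4 piglets. All these r values are descriptions over arrays that share piglets, and carry no test.

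Genes outside the set were ranked by how closely they followed each member over the 16 arrays, with the r after subtraction of group means given second. DUOX2 was followed by RGS4, a regulator of G-protein signalling (0.93 and 0.86), ZFAND2A (0.90 and 0.92) and GPX2 (0.90 and 0.81). ARG2 was followed by GPX2 (0.94 and 0.89), the epithelial transcription factor EHF (0.94 and 0.78) and GFPT1, the entry enzyme of hexosamine synthesis (0.93 and 0.87). GPX2, a hydroperoxide-removing enzyme, was thus in the leading 3 of both. After CD163, S100A9 was followed by NUCB2 (0.91 and 0.82) and the complement protease CFB (0.91 and 0.48). For DUOX2 and S100A9 the r after subtraction of group means, that with CD163 included, again rests mostly on the untreated arrays.

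The other members had these neighbours. REG4 was followed by FAM49B (0.92 and 0.88), the phospholipid-binding protein ANXA1 (0.90 and 0.91) and FABP3, a fatty acid-binding protein (0.88 and 0.83). RNASE4 was followed by the chromatin proteins BAZ1A (0.93 and 0.85) and EED (0.92 and 0.92) and by CD59, which protects cells from complement (0.91 and 0.78). For the remaining 3 members the leading genes were PSMB8, IL18 and ARNTL for BPI (0.82, 0.82 and 0.81, and 0.47, 0.59 and 0.43 within groups), FABP6, RER1 and TBC1D7 for DEFB1 (0.85, 0.79 and 0.79, and 0.48, 0.46 and 0.36), and TST, TMEM139 and ELOVL6 for LEAP2 (0.88, 0.88 and 0.87, and 0.61, 0.62 and 0.59). Of the genes named for likeness, CD163, CFB, RGS4 and PSMB8 passed in distal tissue, by -5.00, -2.71, -1.37 and -1.49 (adjusted p = 0.00560, 0.00369, 0.0429 and 0.000896), and CFB in proximal tissue (-2.57, adjusted p = 0.0318).

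Other antimicrobial proteins gave context. Of 49 listed, 26 were annotated and 14 tested. In distal tissue 3 of the 8 that are not members passed, all lower, beside 2.12% of all probe sets (1.1% lower). They included DMBT1, a mucosal protein that aggregates bacteria (9.22 with antibiotics and 13.42 untreated), and SFTPD, a collectin (4.58 and 9.33). PI3 (elafin), a protease inhibitor with antimicrobial activity, was the other (4.59 and 10.96). In proximal tissue 2 of the 8 passed, DMBT1 (11.35 and 14.04, adjusted p = 0.00848) and SFTPD (4.27 and 8.43, adjusted p = 0.0187), beside 0.147% of all probe sets. PI3 was dim in both proximal groups (2.56 and 2.47). The median difference of the 8 was -2.34 in distal and -0.61 in proximal tissue. PI3 was the only one whose difference of effects passed (-6.46, SE 1.11, adjusted p = 0.0277). Near the floor in both proximal groups, PI3 could not fall there, so this value largely restates its distal fall. In untreated piglets PI3 was higher by 8.49 in distal than in proximal tissue (adjusted p = 1.68e-05). SLPI, a protease inhibitor of mucus, rose by 6.94 in distal against proximal tissue with antibiotics (adjusted p = 1.35e-07) and by 6.31 in untreated piglets (adjusted p = 5.44e-07). NPG4 (protegrin 4) had group means of 7.08 to 9.12, with an SD of 2.11 to 3.54. It differed by -0.26 in distal and 1.92 in proximal tissue (limma adjusted p = 0.970 and 0.731). With each piglet counted once, NPG4 averaged higher with antibiotics (2.17, SE 0.47, adjusted p = 0.0989). Of the 8 that are not members 6 averaged lower in distal tissue, beside 49.6% of all probe sets, and 5 in proximal tissue, beside 56.8%. HAMP, LTF and PR39, which encode hepcidin, lactoferrin and a porcine cathelicidin, had group means of at most 2.51 and were not tested.

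**Figure D4:**
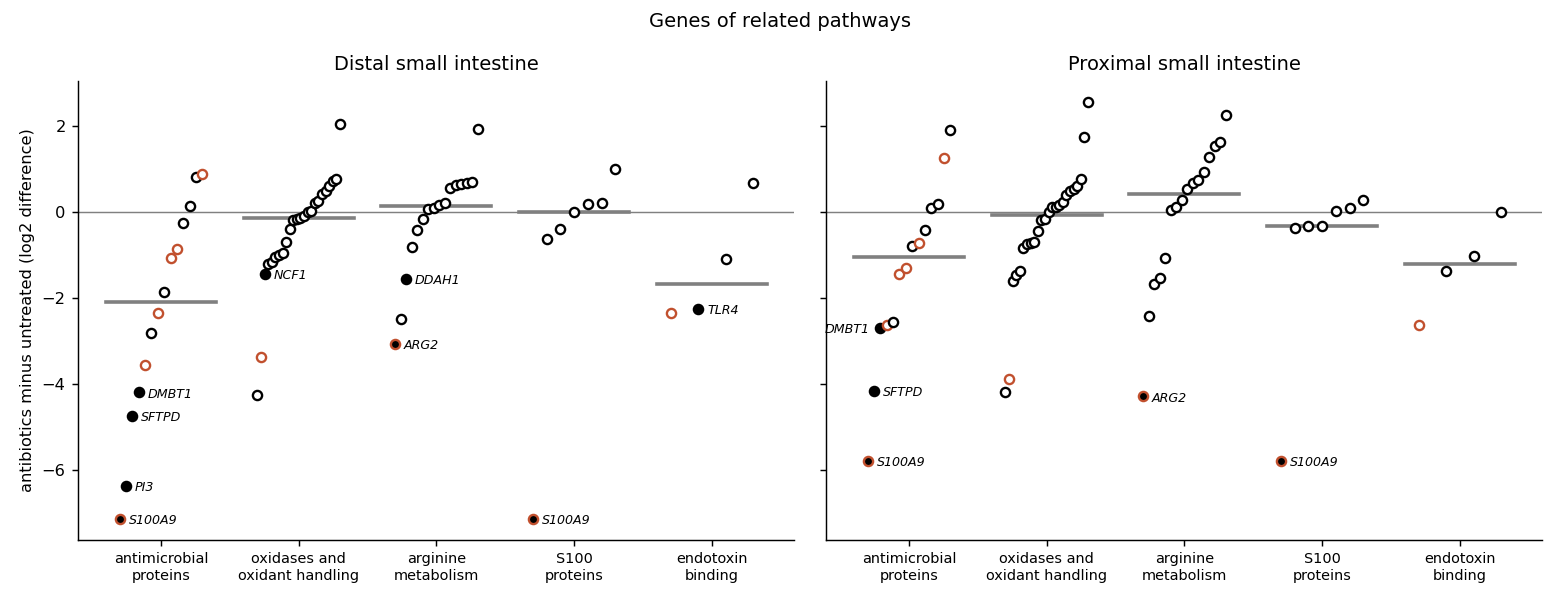
Difference of group means, antibiotics minus untreated, in log2 units (vertical axis) for every tested gene of 5 lists in distal (left) and proximal (right) small intestine; filled points passed an adjusted p of 0.05 in limma and are named, orange rims mark the 8 genes described here, and grey bars are list medians. Within the S100 list S100A9 stands at -7.15 and -5.79 while the other 6 genes lie between -0.62 and 1.01, and within the arginine list ARG2 has the most negative value in both segments.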

How the data were processed

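Total RNA of distal and proximal small intestine was hybridised to Affymetrix porcine arrays. Per the labels' protocols, Trizol and RNeasy columns were used for isolation and the 3′ IVT Express kit for labelling. GCOS 1.2, GCRMA and limma were used per the submitters' processing notes, without their order or settings. The authors deposited log2 GCRMA values, 1 per probe set and array, with a floor at 2.14, so differences that reach the floor understate or poorly fix a change. The number of arrays limits the precision.

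The 8 genes, the lists and the tests were chosen with earlier results of these data known. Probe sets were named by the platform annotation (5759 of those tested had 1 gene), and the probe set brightest on average over the 16 arrays, among those annotated with 1 gene alone, stands for that gene. Group means were fitted with limma 3.58.1 in R 4.3.3 on all 16 arrays for the 11538 probe sets above log2 5 on at least 4 arrays. All of these entered the Benjamini-Hochberg adjustment of p-values, with a threshold of 0.05. "At least" folds are the fold of the higher mean over log2 5, given where no array of the lower group exceeded it. Summed levels are log2 of summed linear values. Named genes are the 8 members, list genes past the threshold or with the 2 largest absolute differences, and for each member the 3 genes of highest r. Genes outside this rule (list neighbours, dim genes, markers and NPG4) were named after their values were seen.

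Numbers pair segments of the same piglet. The residuals of the 2 segments correlated at r = 0.0293 to 0.526, above 0.1 for 5 of 7 piglets, and with the piglet as a block (correlation 0.172 by duplicateCorrelation, statmod 1.5.0) no call of a member changed. The 5′ minus 3′ signal of GAPDH and actin controls was -3.75 ± 0.62 with antibiotics and -3.49 ± 0.32 untreated in distal, and -3.01 ± 0.40 and -3.33 ± 0.79 in proximal tissue (SD over 4 arrays, p = 0.514 for both in a two-sided exact permutation test). Alternatives were other filters, normalizations, variance models and array weights, the piglet as a block, subsets of arrays, the mean of a gene's probe sets, RNA integrity and gut position as covariates, and each array left out. Sequences are not shown here. Plots used matplotlib 3.10.9 and Python 3.11.15.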

Additional observations from a re-analysis of the deposited data

How the results depend on the processing

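In distal tissue the number of the 8 genes that passed, 2, was 1 when dim probe sets were kept, 1 with only piglets that gave both segments, 1 with a gene's probe sets averaged (7 genes tested, since ARG2 then failed the filter), 3 with quantile normalization again, with only the 8 distal arrays or at an adjusted p of 0.10, 5 with array quality weights, and 1 to 3 with 1 array left out. In proximal tissue the number, 2, was 0 with no filter, 0 with only the 8 proximal arrays, 1 with probe sets averaged, 1 with RNA integrity and 1 with gut position as a covariate, 3 with array quality weights, and 0 to 3 with 1 array left out. The difference of the effects gave 0 to 1 when 1 array was left out, and piglet means gave 0 with no filter and 0 to 3 when 1 piglet was left out, where the full fits gave 0 and 1. The replicate block as a random effect of the piglet left the count of members at its value in each comparison of arrays. As a fixed effect it was fitted only for the difference of the effects and for distal against proximal tissue. Those counts stayed the same, and treatment within a segment cannot be estimated that way.

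The following signs turned, all in differences that did not pass. With 1 array left out the difference of effects ranged over -0.893 to 1.56 for DUOX2 and -0.254 to 0.958 for BPI. The segment difference in untreated piglets ranged over -0.364 to 1.51 for S100A9, -1.58 to 0.874 for DUOX2, -1.20 to 0.0990 for ARG2 and -0.262 to 0.465 for REG4 (-0.238 with array quality weights). In antibiotic-treated piglets it was 0.00944 with equal array medians and 0.0679 with RNA integrity for DUOX2, and 0.00790 with the piglet as a fixed block or with only piglets that gave both segments for RNASE4 (-0.544 to 0.0298 with 1 array left out). The cause was not tested. With gut position as a covariate distal and proximal tissue could not be compared, since the axis is that of the segments. A filter at log2 7 leaves 7 genes, without DUOX2. The signs of all treatment differences of the 8 genes within a segment stayed the same under each alternative run.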
